A study of Homo sapiens with 10 samples.

Results

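The genes described here encode the subunits of the ligand-gated receptor channels for GABA, glycine, glutamate and acetylcholine. They were chosen by symbol, as every gene whose name in the authors' deposited comparison table begins with GABR, GRIA, GRIK, GRID, GRIN, GLRA, GLRB or CHRN and ends as a subunit name does. That gave 55 of the 32152 genes in the table of raw counts. They comprised 15 GABA-A, 2 GABA-rho, 5 glycine, 3 AMPA, 5 kainate, 7 NMDA, 2 delta and 16 nicotinic subunit genes. PolyA RNA was sequenced from WAe009-A human embryonic stem cells, in 5 libraries of cells whose titles begin with 57-KO and whose genotype field reads KCNH2 knockdown, and in 5 libraries of WT cells. The series text gives the first group as KCNH2-/- cells isogenic with the WT, so they are called knockout here. KCNH2 encodes the hERG1 potassium channel. Per the labels, knockout cells were kept in mTeSR plus medium and WT cells in TeSR-E8, both on Matrigel, so that genotype and medium cannot be told apart in any comparison that follows. The labels do not explain the number 57, which all knockout titles share, and do not say how many clones were used or that the libraries came from separate cultures, so the p-values reflect the spread among these libraries alone, which may be technical.

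GABA-A, glycine and nicotinic receptors belong to the pentameric Cys-loop family, in which subunits from several genes assemble around a pore that passes chloride (GABA, glycine) or cations (acetylcholine). AMPA, kainate and NMDA receptors are tetrameric cation channels opened by glutamate, while the delta subunits are related to them and act mainly as synaptic organisers. In the brain these channels carry fast transmission. GABRP, the pi subunit of the GABA-A receptor, is used as a marker of amnion and trophoblast.

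Total counts ran between 29788732 and 40587206 for the knockout libraries and between 28615751 and 47319933 for WT. Where a gene has a count of 0, up to 3 counts remain possible, which is 0.0634 to 0.105 CPM (counts scaled to library size) and covers counting error only. The first principal component, with 44.8% of the variance of log2 CPM, separated the groups, and knockout replicate 3 stood apart on the second (28.3%) at -59.1, with WT replicate 3 at -32.2 and WT replicate 2 at -10.1. Results were therefore also computed without these libraries. KCNH2 was measured at 11.2, 13.2, 13.2, 12.2 and 11.2 CPM in the knockout, against 14.9, 16.1, 14.7, 16.4 and 15.4 CPM in WT. The groups did not overlap, and KCNH2 fell in the knockout (log2 fold change -0.35, SE 0.061, adjusted p = 6.48e-04, quasi-likelihood test of edgeR, adjusted by Benjamini-Hochberg over 19163 genes, as in all tests below). Counts over a whole gene do not show whether its product is lost. POU5F1, which marks pluripotent cells, averaged 3214 CPM in the knockout, against 2617 CPM in WT, and NANOG, another such gene, averaged 86.8 CPM in the knockout, against 71.7 CPM in WT. The summed level of the 10 pluripotency genes listed was 6682 to 7078 CPM in the knockout, against 5826 to 6142 CPM in WT.

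Among the receptor subunit genes with enough counts to be tested, falls in the knockout outnumbered rises. Of the 55 genes, 39 were tested. At an adjusted p under 0.05, 20 were lower in the knockout and 4 were higher, while 15 passed in neither direction. That is 51.3% lower and 10.3% higher, against 24.1% lower and 21.9% higher among all 19163 genes tested (46.0% in either direction). CHRNE and CHRNA10 entered the test through WT, where they were higher, and without them 18 of 37 were lower and 4 higher (48.6% and 10.8%). GLRB, which exceeded the count filter in 3 knockout and 5 WT libraries, is still counted among these 18. Among the 27 subunit genes that averaged at least 1 CPM in either group, 17 were lower and 2 were higher. In a fit filtered at 1 CPM in 5 libraries, 27.3% of all 15934 genes were lower and 25.3% higher. The median log2 fold change (knockout over WT) was -0.25 over the 39 tested subunit genes and 0.0018 over all tested genes. The median for long genes lay between these values. The tested subunit genes had a median transcript length of 4686 bases, against 2701 bases for all tested genes, and the 4263 tested genes of at least 4686 bases had a median log2 fold change of -0.11. With an offset for length and GC content, 16 subunit genes were lower and 6 higher (23.9% and 20.4% of all genes in that fit). Without knockout replicate 3 and WT replicate 3, 14 were lower and 2 higher, and without WT replicate 2 as well, 11 were lower and 2 higher. The first of these fits lost 8 of the 24 calls (among them GABRG1, GRIA3, GRIA4, GRIK5, CHRNA4, CHRNA5 and CHRNB4) and the second also lost those of GRIN1, CHRNA10 and CHRNB2. The background shares of all genes in these 2 fits were 20.9% lower and 19.9% higher, then 18.5% lower and 18.5% higher. For 13 tested subunit genes every knockout library lay below every WT library and for 1 gene above (17.7% and 16.3% of all tested genes). In RNA from whole cultures, fewer cells of a type and less RNA per cell cannot be told apart.

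**Figure D1:**
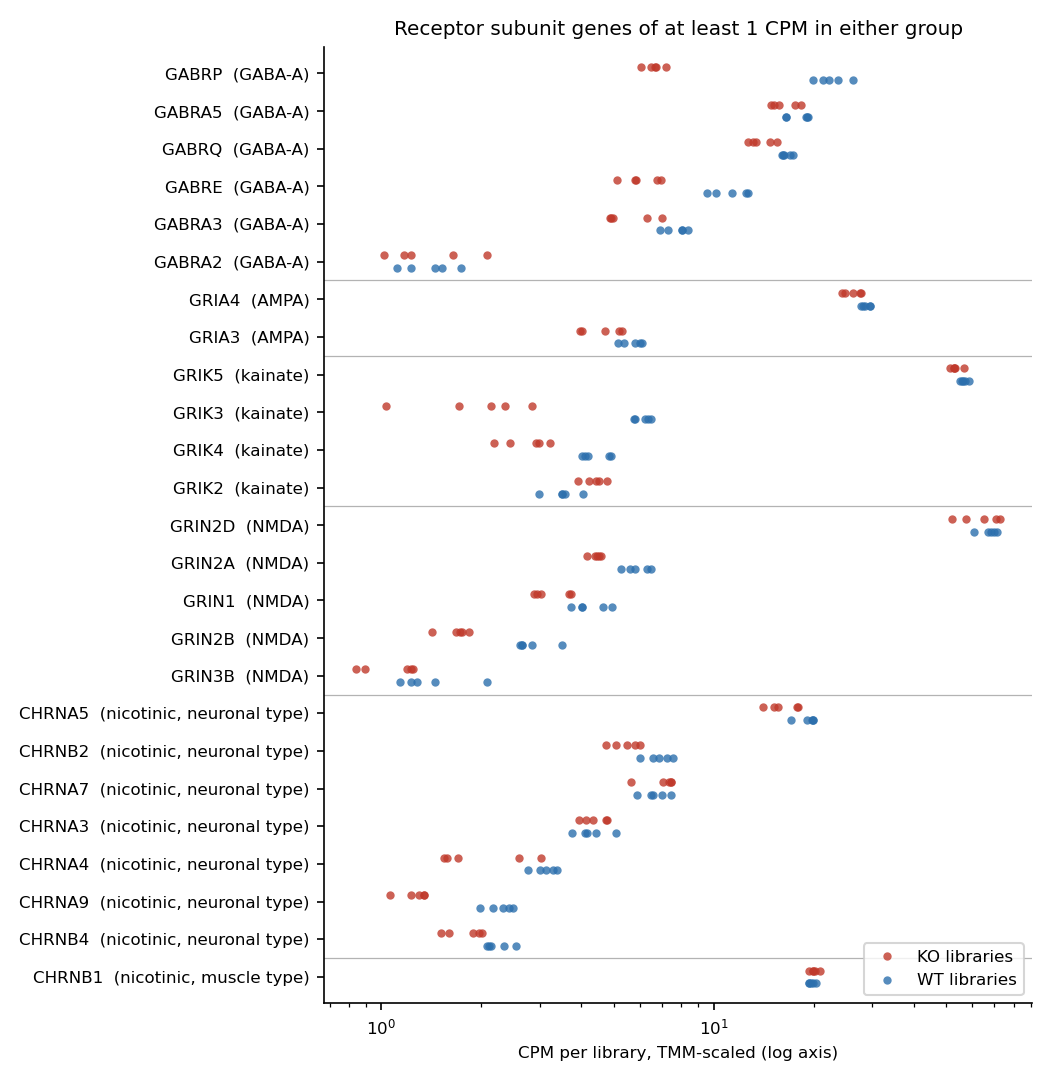
CPM of each library (log axis) for 25 receptor subunit genes that averaged at least 1 CPM in either group, ordered by class and level. Each point is 1 library, with knockout (red) drawn above WT (blue). The groups lie clearly apart for GABRP, GABRE, GRIK3, GRIK4, GRIN2A, GRIN2B and CHRNA9, and lie on each other for CHRNB1.

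The strongest fall of the set was that of GABRP. The gene (ENSG00000094755, chromosome 5, 170763350 to 170814047, plus strand, hg38) was measured at 6.05, 6.71, 6.47, 6.67 and 7.21 CPM in the knockout, against 26.3, 22.3, 23.7, 19.9 and 21.4 CPM in WT. Every knockout library lay below every WT library. GABRP averaged 6.62 ± 0.419 CPM in the knockout, against 22.7 ± 2.44 CPM in WT (SD, n = 5 each, as for all means given with ± here), a level 3.43-fold lower in the knockout (log2 fold change -1.78, SE 0.077, adjusted p = 1.46e-08). KRT7, which marks amnion and trophoblast among other epithelia, also fell (log2 fold change -0.63, adjusted p = 0.00752), whereas TFAP2C and IGFBP3 of the same marker list rose (0.42 and 0.78, adjusted p = 0.00939 and 5.09e-04). Of the 16 listed markers 12 were matched and 5 tested, GABRP included. Leaving GABRP out, the list summed to 14.9 to 18.4 CPM in the knockout, against 16.4 to 18.4 CPM in WT. TFAP2A, ISL1, CDX2 and CGB5 averaged under 0.1 CPM in both groups, at or near 0.

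Promoter sequences are shown for GABRP and the 3 other genes with the largest falls. They were taken among the genes of at least 1 CPM that were lower and had a window in the RefSeq table. Base composition played no part in the choice, and it differs among the 4 windows. Each is the stretch before the RefSeq start in GRCh38.p14, 5′ to 3′ on the gene's strand, cut where a GENCODE 29 exon begins. Capitals mark a GC box (GGGCGG, or CCGCCC on the other strand) or the AP-2 motif GCCNNNGGC. GABRP comes from chr5:170783475-170783690 (plus strand), GRIK3 from chr1:37034516-37034765 (minus), GABRE from chrX:151974681-151974926 (minus) and CHRNA9 from chr4:40335083-40335328 (plus). The GRIK3 start in RefSeq lies 386 bases from the nearest GENCODE 29 start. The GABRP start in RefSeq (170783725) is also a GENCODE 29 transcript start, but lies inside the gene, whose span begins at 170763350. The GABRP window therefore describes that start alone.
GABRP: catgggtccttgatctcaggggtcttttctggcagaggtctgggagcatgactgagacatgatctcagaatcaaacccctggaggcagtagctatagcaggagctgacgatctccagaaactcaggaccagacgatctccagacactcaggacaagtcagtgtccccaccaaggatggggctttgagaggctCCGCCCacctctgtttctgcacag
GRIK3: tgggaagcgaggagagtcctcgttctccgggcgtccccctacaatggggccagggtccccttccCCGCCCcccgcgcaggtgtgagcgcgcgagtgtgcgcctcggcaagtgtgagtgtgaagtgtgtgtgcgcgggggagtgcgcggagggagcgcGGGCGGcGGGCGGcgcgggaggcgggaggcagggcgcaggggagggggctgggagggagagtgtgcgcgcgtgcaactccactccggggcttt
GABRE: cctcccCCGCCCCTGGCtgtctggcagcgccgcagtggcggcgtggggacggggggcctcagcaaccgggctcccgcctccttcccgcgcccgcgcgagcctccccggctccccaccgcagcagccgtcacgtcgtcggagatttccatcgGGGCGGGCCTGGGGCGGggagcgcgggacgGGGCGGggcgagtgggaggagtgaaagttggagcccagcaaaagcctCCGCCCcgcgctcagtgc
CHRNA9: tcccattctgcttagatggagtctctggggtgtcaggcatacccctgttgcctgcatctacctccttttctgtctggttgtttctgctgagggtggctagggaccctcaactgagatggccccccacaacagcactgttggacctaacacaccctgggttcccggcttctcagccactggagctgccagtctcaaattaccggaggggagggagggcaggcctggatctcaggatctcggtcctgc
The GRIK3 and GABRE windows are rich in CpG sites, with 29 and 30 sites printed and observed over expected ratios of 0.92 and 0.84 over the 250 bases. Those of GABRP and CHRNA9 hold 3 sites each, at ratios of 0.16 and 0.14. The windows hold 1 GC box in GABRP, 3 in GRIK3, 5 in GABRE and 0 in CHRNA9, and both AP-2 matches of GABRE overlap a GC box. Of the 36 subunit genes with a window, 21 held a GC box, 7 the AP-2 motif, 13 a CCAAT box (CCAAT), 2 a TATA box (TATAAA) and 0 a cyclic AMP response element (TGACGTCA), on either strand. Among all 27303 promoters of the same length these shares were 42.3%, 19.7%, 33.0%, 11.1% and 1.77%. The median CpG ratio was 0.62 for the 15 subunit genes that were lower and had a window, 0.73 for the 9 that were tested and not called, and 0.56 for all promoters. A match describes letters in the window and not a bound site.

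Among the other GABA-A genes, GABRE, GABRA3 and GABRQ fell. GABRE, the epsilon subunit gene (ENSG00000102287, chromosome X, 151953124 to 151974680, minus strand), stood at 6.75, 6.93, 5.13, 5.83 and 5.78 CPM in the knockout, against 12.7, 12.5, 9.57, 10.2 and 11.4 CPM in WT. The groups did not overlap, and the level was 1.85-fold lower in the knockout (log2 fold change -0.89, SE 0.10, adjusted p = 3.73e-05). GABRA3, the alpha3 subunit, was measured at 6.32, 7.01, 4.91, 4.87 and 4.98 CPM in the knockout, against 6.88, 8.02, 7.27, 8.40 and 8.03 CPM in WT. Its groups overlapped through knockout replicate 2 and WT replicate 1, and it fell (log2 fold change -0.46, SE 0.11, adjusted p = 0.00545). GABRQ, the theta subunit, was measured at 15.6, 14.8, 13.4, 13.1 and 12.7 CPM in the knockout, against 16.1, 17.01, 16.2, 17.3 and 16.2 CPM in WT. All its knockout libraries lay below all WT libraries, although the step was small (log2 fold change -0.25, SE 0.058, adjusted p = 0.00392), and with the offset for length and GC content GABRQ was no longer called.

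Per kilobase of transcript, GABRP was at 1.85 CPM per kb in the knockout and 6.36 in WT. GABRQ was at 2.26 CPM per kb in the knockout and 2.68 in WT, and GABRE at 1.93 in the knockout and 3.57 in WT, so that GABRP stood above both in WT. In the knockout GABRP lay below GABRQ and close to GABRE. This order rests on 1 transcript length per gene. GABRA5, the alpha5 subunit, averaged 16.3 ± 1.53 CPM in the knockout, against 18.1 ± 1.44 CPM in WT and did not pass (log2 fold change -0.15, SE 0.072, adjusted p = 0.112, 95% interval -0.31 to 0.0083). GABRA2, the alpha2 subunit, averaged 1.43 ± 0.433 CPM in the knockout, against 1.41 ± 0.245 CPM in WT, with an interval of -0.42 to 0.47 around a log2 fold change of 0.021 whose sign turned under the length and GC offset and with limma voom.

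GABRG1, a gamma subunit under 1 CPM, rose. It had 0.605, 0.501, 0.809, 0.764 and 0.456 CPM in the knockout, against 0.304, 0.331, 0.267, 0.550 and 0.272 CPM in WT. The groups overlapped through WT replicate 4, which reached 0.550 CPM, and the gene passed the test (log2 fold change 0.87, SE 0.26, adjusted p = 0.0153) but not once knockout replicate 3 and WT replicate 3 were left out together. GABRB2 and GABRD, the beta2 and delta subunits, ranged between 0.278 and 1.03 CPM over all libraries and did not pass, with log2 fold changes of 0.48 and 0.23. GABRB2 passed once the length and GC offset was used.

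**Figure D2:**
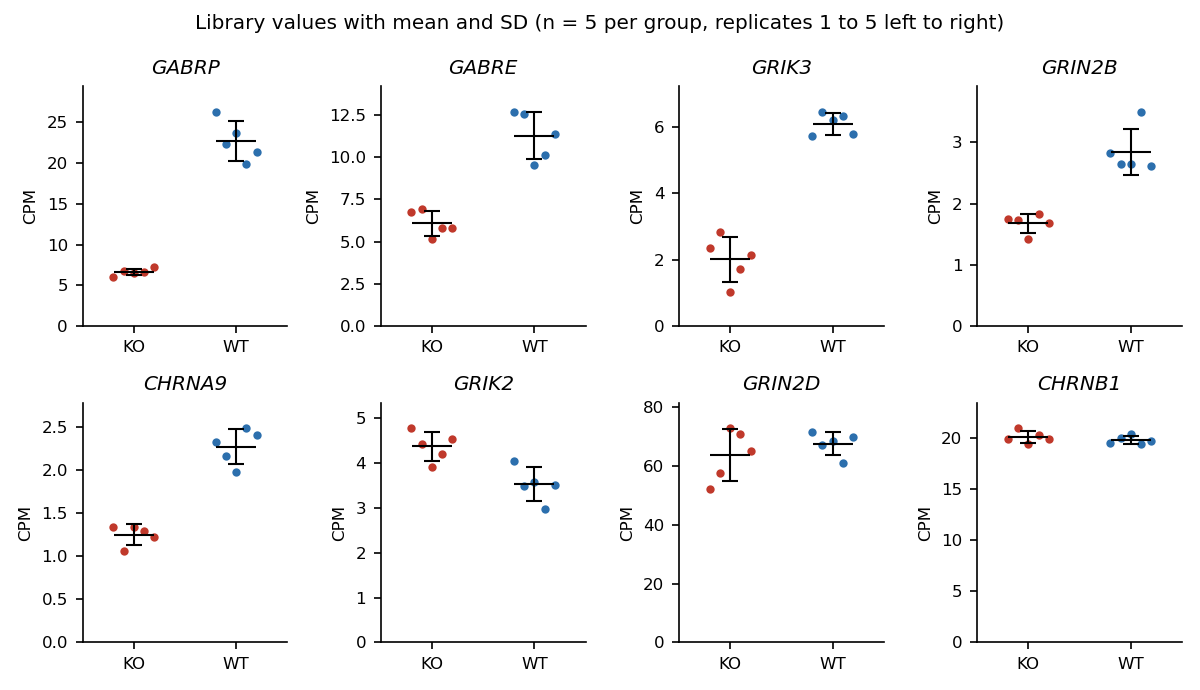
CPM of each library for 8 receptor subunit genes, with the group mean and SD (n = 5 per group, replicates 1 to 5 from left to right, linear axes from 0). GABRP, GABRE, GRIK3, GRIN2B and CHRNA9 were lower in every knockout library, GRIK2 was higher with overlapping groups, and the groups overlapped for GRIN2D and CHRNB1.

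Glycine receptor genes were scarce. GLRB, the beta subunit that ties glycine receptors to gephyrin, was measured at 0.571, 0.362, 0.223, 0.382 and 0.142 CPM in the knockout, against 0.784, 0.992, 0.667, 0.840 and 0.714 CPM in WT. Every knockout library lay below every WT library, and GLRB fell (log2 fold change -1.26, SE 0.29, adjusted p = 0.00369). GLRB exceeded the count filter in 3 knockout libraries and 5 WT libraries. The knockout libraries alone would not have brought it into the test, so its inclusion rests on WT, where it was higher. GLRA4, a pseudogene in humans, averaged 0.371 ± 0.104 CPM in the knockout, against 0.6004 ± 0.183 CPM in WT and did not pass (log2 fold change -0.67, adjusted p = 0.0693), while GLRA1, GLRA2 and GLRA3, the alpha subunit genes, were too low to test. GPHN, which encodes gephyrin, averaged 13.4 ± 0.622 CPM in the knockout, against 12.6 ± 0.348 CPM in WT and did not pass (log2 fold change 0.079, adjusted p = 0.176).

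Among the glutamate receptor genes, 8 of 15 tested fell and 2 rose (53.3% and 13.3%, against 24.1% and 21.9% of all tested genes). The kainate genes moved apart. GRIK3, the GluK3 subunit gene (ENSG00000163873, chromosome 1, 36795527 to 37034129, minus strand), was measured at 2.35, 2.84, 1.03, 1.71 and 2.14 CPM in the knockout, against 5.74, 6.47, 6.21, 6.34 and 5.78 CPM in WT. All knockout libraries lay below the lowest WT library, with knockout replicate 3 lowest. GRIK3 averaged 2.01 ± 0.683 CPM in the knockout, against 6.11 ± 0.329 CPM in WT (SD, n = 5 each), 3.04-fold lower in the knockout (log2 fold change -1.60, SE 0.20, adjusted p = 5.67e-05). GRIK4, whose product GluK4 needs a partner subunit to form a channel, had 2.92, 3.23, 2.18, 2.45 and 2.99 CPM in the knockout, against 4.20, 4.11, 4.92, 4.02 and 4.83 CPM in WT. The groups did not overlap (log2 fold change -0.68, SE 0.12, adjusted p = 5.66e-04). GRIK2, the GluK2 subunit gene, rose instead, at 4.77, 4.42, 3.90, 4.20 and 4.53 CPM in the knockout, against 4.05, 3.49, 3.58, 2.98 and 3.50 CPM in WT. Its groups overlapped through knockout replicate 3 and WT replicate 1 (log2 fold change 0.31, SE 0.093, adjusted p = 0.0175). GRIK5, the GluK5 partner subunit gene, was by far the most abundant of the class per kilobase, at 15.3 CPM per kb in the knockout and 16.2 in WT, which is 90.4% and 88.1% of the summed kainate level. GRIK5 had 52.8, 56.5, 53.1, 51.5 and 53.4 CPM in the knockout, against 56.0, 56.3, 55.2, 57.3 and 58.8 CPM in WT. The groups overlapped and the difference was small (log2 fold change -0.085, SE 0.031, adjusted p = 0.0420). Its call was lost in 8 of the 10 fits that left out 1 library, all but those without knockout replicate 2 or WT replicate 3, with log2 fold changes of -0.10 to -0.068 and adjusted p up to 0.128, and also with the length and GC offset, with DESeq2 size factors, with no filter on low counts and in the DESeq2 Wald test (adjusted p = 0.0806, 0.0770 and 0.108 in the last 3).

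NMDA receptors pair the obligatory GluN1 subunit, encoded by GRIN1, with GluN2 or GluN3 subunits. GRIN1 was measured at 3.02, 3.67, 2.87, 2.93 and 3.73 CPM in the knockout, against 4.93, 4.65, 4.03, 4.02 and 3.71 CPM in WT. The groups overlapped at 1 WT library, replicate 5, and GRIN1 fell (log2 fold change -0.40, SE 0.11, adjusted p = 0.0121). GRIN2A, a GluN2 gene, had 4.57, 4.51, 4.16, 4.38 and 4.44 CPM in the knockout, against 6.48, 5.27, 6.30, 5.62 and 5.82 CPM in WT. Its groups did not overlap (log2 fold change -0.42, SE 0.073, adjusted p = 6.49e-04). GRIN2B, another GluN2 gene, had 1.75, 1.73, 1.42, 1.83 and 1.68 CPM in the knockout, against 2.83, 2.65, 2.65, 3.50 and 2.62 CPM in WT. Again no knockout library reached a WT library, with WT replicate 4 above its group (log2 fold change -0.76, SE 0.11, adjusted p = 2.26e-04). GRIN2D, the GluN2 gene that led the class, had 52.1, 57.5, 72.7, 70.9 and 65.0 CPM in the knockout, against 71.5, 67.1, 68.2, 60.9 and 69.7 CPM in WT. Knockout replicates 1 and 2 were below all WT libraries and replicates 3 and 4 above nearly all of them, so that the means differed by less than the spread (log2 fold change -0.084, SE 0.084, adjusted p = 0.443, 95% interval -0.27 to 0.10). The sign of GRIN2D turned with the length and GC offset. GRIN2D held 89.6% of the summed NMDA level per kilobase in the knockout and 87.6% in WT, at 12.5 and 13.3 CPM per kb, while GRIN1 was at 0.630 and 0.829 CPM per kb. GRIN3B averaged 1.08 ± 0.197 CPM in the knockout, against 1.43 ± 0.377 CPM in WT and did not pass (log2 fold change -0.40, adjusted p = 0.110), and GRIN2C and GRIN3A stayed under 0.7 CPM in every library without passing. GRIN3B shares 85 exonic bases with TMEM259 on the opposite strand, so its reads are uncertain. TMEM259 averaged 237 CPM in the knockout, against 223 CPM in WT.

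The AMPA receptor genes that fell did so by little. GRIA4, the GluA4 gene and the leading AMPA gene per kilobase (4.76 CPM per kb in the knockout, 5.21 in WT), was measured at 27.8, 27.6, 24.4, 26.3 and 24.9 CPM in the knockout, against 28.2, 28.5, 27.8, 29.5 and 29.5 CPM in WT. Knockout replicates 1 and 2 lay just below the lowest WT library and the others further below it, so the groups did not overlap (log2 fold change -0.13, SE 0.043, adjusted p = 0.0247). GRIA3, the GluA3 gene, had 5.17, 5.31, 3.96, 4.02 and 4.70 CPM in the knockout, against 5.14, 5.81, 5.36, 6.08 and 6.02 CPM in WT. The groups overlapped (log2 fold change -0.29, SE 0.10, adjusted p = 0.0288). Both calls depended on single libraries. GRIA4 lost its call without knockout replicate 3 or 5 or WT replicate 4 or 5 (adjusted p up to 0.0639, log2 fold changes -0.15 to -0.11), and with the length and GC offset. GRIA3 lost its call without knockout replicate 3, 4 or 5 or WT replicate 2, 4 or 5 (adjusted p up to 0.0704, log2 fold changes -0.35 to -0.24). GRIA1, the GluA1 gene, averaged 0.699 ± 0.185 CPM in the knockout, against 0.708 ± 0.142 CPM in WT and did not pass (log2 fold change -0.032, adjusted p = 0.917).

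**Figure D3:**
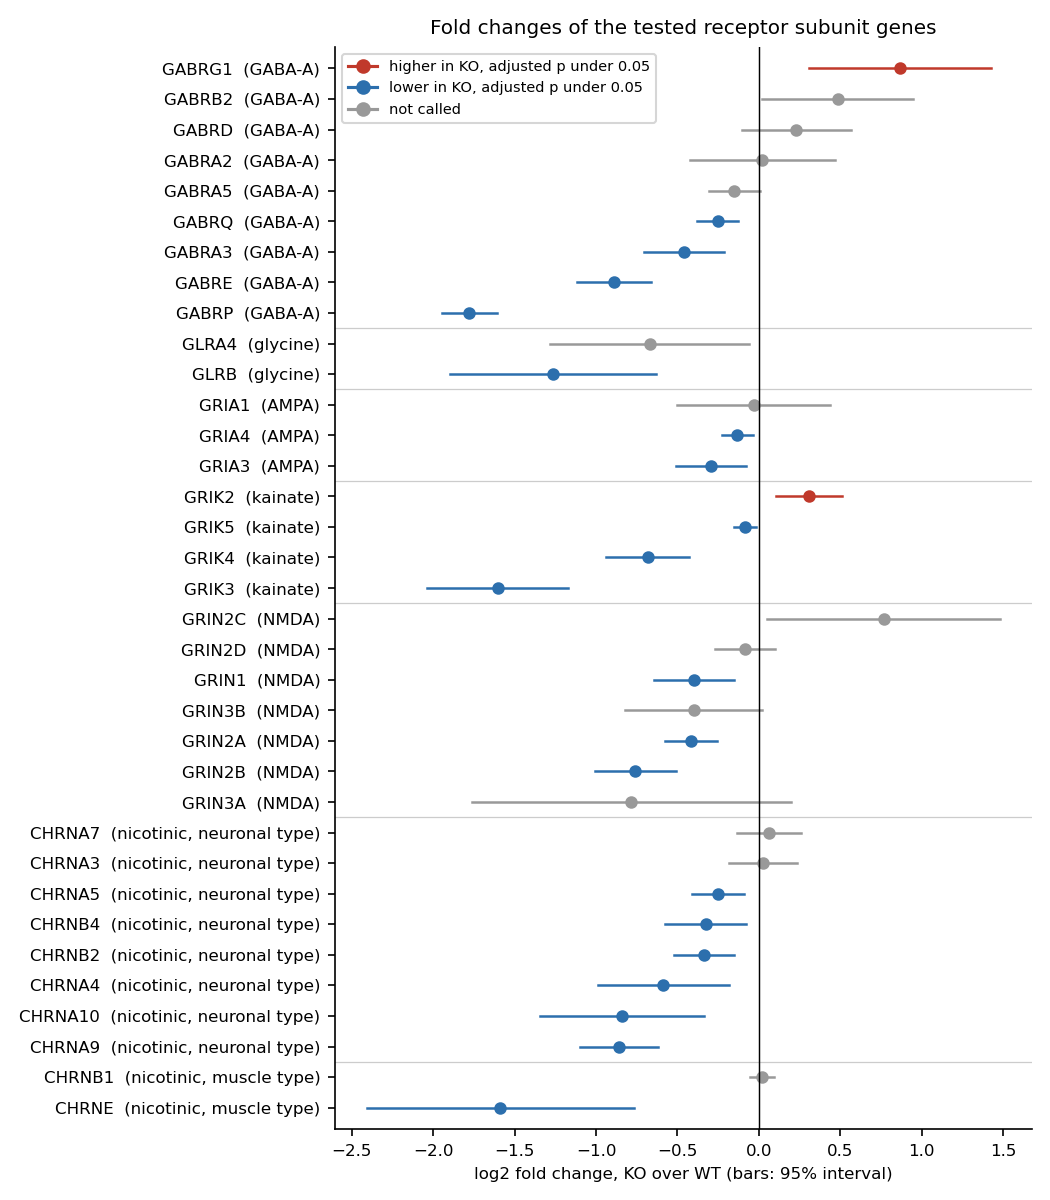
Log2 fold change (knockout over WT) of 35 tested receptor subunit genes by class, with 95% intervals from the edgeR fit. Red marks an adjusted p under 0.05 in the higher direction, blue in the lower direction, and grey genes did not pass. GABRP at -1.78, GRIK3 at -1.60 and CHRNE at -1.59 lie furthest to the left.

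Of the 16 nicotinic genes 10 were tested, and 7 fell while 0 rose. Without CHRNE and CHRNA10, which met the count filter in 1 knockout library each, 5 of 8 fell (62.5%, against 24.1% of all tested genes). CHRNA9, the alpha9 subunit best known from cochlear hair cells (ENSG00000174343, chromosome 4, 40335329 to 40355217, plus strand), was measured at 1.34, 1.06, 1.34, 1.30 and 1.22 CPM in the knockout, against 2.33, 2.17, 1.98, 2.49 and 2.42 CPM in WT. The groups did not overlap, and CHRNA9 was 1.81-fold lower in the knockout (log2 fold change -0.86, SE 0.11, adjusted p = 7.44e-05). CHRNA10, whose product assembles with alpha9, stood at 0.202, 0.223, 0.251, 0.280 and 0.199 CPM in the knockout, against 0.304, 0.455, 0.356, 0.550 and 0.442 CPM in WT. Again the groups did not overlap (log2 fold change -0.84, SE 0.23, adjusted p = 0.0104), but the DESeq2 Wald test did not call the gene (adjusted p = 0.0667). CHRNA10 shares 133 exonic bases on the same strand with NUP98, which averaged 139.6 CPM in the knockout, against 147.7 CPM in WT, so its reads are uncertain.

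CHRNA4 and CHRNB2 encode the subunits of the main high-affinity nicotine receptor of the brain. CHRNA4 had 3.02, 2.59, 1.70, 1.58 and 1.54 CPM in the knockout, against 3.37, 3.29, 3.14, 3.01 and 2.76 CPM in WT. Knockout replicates 1 and 2 were near or inside the WT range and the other knockout libraries far below it (log2 fold change -0.59, SE 0.18, adjusted p = 0.0214). Its call was lost without knockout replicate 4 or 5, with adjusted p up to 0.0547 and log2 fold changes of -0.74 to -0.49, and with the length and GC offset. CHRNB2 had 5.78, 6.01, 4.74, 5.50 and 5.10 CPM in the knockout, against 6.58, 7.56, 7.23, 6.83 and 6.02 CPM in WT. The groups lay just apart, by the gap between knockout replicate 2 and WT replicate 5 (log2 fold change -0.34, SE 0.085, adjusted p = 0.00649), and the call was lost with the length and GC offset.

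CHRNA5, CHRNA3 and CHRNB4 lie side by side on chromosome 15. CHRNA5, the leading neuronal-type gene per kilobase (46.3% of the summed level of its class in the knockout, 45.8% in WT), was measured at 18.0, 17.8, 14.1, 15.2 and 15.6 CPM in the knockout, against 17.1, 19.9, 19.8, 19.9 and 19.2 CPM in WT. The overlap came from WT replicate 1, which was below the rest of WT (log2 fold change -0.25, SE 0.072, adjusted p = 0.0137). CHRNA5 lost its call when knockout replicate 3 and WT replicate 3 were left out together. CHRNB4 had 1.88, 2.003, 1.51, 1.96 and 1.59 CPM in the knockout, against 2.07, 2.34, 2.54, 2.14 and 2.11 CPM in WT. Every knockout library lay below every WT library (log2 fold change -0.33, SE 0.11, adjusted p = 0.0341). The call was lost without knockout replicate 3 or 5 or WT replicate 2 or 3 (adjusted p up to 0.0880, log2 fold changes -0.37 to -0.27). It was also lost with no filter on low counts (adjusted p = 0.0688) and in the DESeq2 Wald test (adjusted p = 0.0948). CHRNA3 averaged 4.38 ± 0.365 CPM in the knockout, against 4.30 ± 0.502 CPM in WT and did not pass (log2 fold change 0.026, adjusted p = 0.846, 95% interval -0.18 to 0.23). CHRNA5 shares 832 exonic bases, 23.0% of its exons, with the antisense gene AC027228.2, and 198 bases with CHRNA3 on the other strand. The sources used here do not give the strand setting of the counting, and reads in those bases cannot be assigned to a strand.

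CHRNA7, the subunit of homomeric alpha7 receptors, averaged 6.99 ± 0.768 CPM in the knockout, against 6.68 ± 0.584 CPM in WT and did not pass (log2 fold change 0.065, adjusted p = 0.586, 95% interval -0.13 to 0.26). Its partial copy CHRFAM7A averaged 3.13 ± 1.01 CPM in the knockout, against 3.24 ± 0.373 CPM in WT and did not pass either. The sources used here do not give how reads were split between these near-identical sequences, and both levels are uncertain.

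The muscle-type genes were carried by CHRNB1, at 96.8% of their summed level per kilobase in the knockout and 95.01% in WT. CHRNB1, the beta1 subunit, had 19.9, 20.9, 19.4, 20.3 and 19.9 CPM in the knockout, against 19.4, 19.96, 20.3, 19.4 and 19.7 CPM in WT. The 2 ranges coincided (log2 fold change 0.023, adjusted p = 0.625, 95% interval -0.051 to 0.10). CHRNB1 shares 630 exonic bases, 14.6% of its exons, on the same strand with AC113189.4, so reads in those bases are uncertain. AC113189.4 averaged 1.62 CPM in the knockout, against 1.34 CPM in WT. CHRNE, the epsilon subunit of adult muscle receptors, had 0.168, 0.0556, 0.0837, 0.102 and 0.313 CPM in the knockout, against 0.506, 0.434, 0.311, 0.434 and 0.510 CPM in WT, and passed the test as lower (log2 fold change -1.59, SE 0.38, adjusted p = 0.00457). The 2 groups overlapped by a narrow margin, at knockout replicate 5 and WT replicate 3. CHRNE shares 1172 bases, 40.9% of its exons, with C17orf107 on the opposite strand. It also shares 288 bases with MINK1, which averaged 116 CPM in the knockout, against 121 CPM in WT. A further 97 bases are shared with GP1BA, which was lower (log2 fold change -0.50, adjusted p = 0.0423). Both lie on the opposite strand, and their part in the CHRNE reads was not tested. C17orf107 averaged 0.101 CPM in the knockout, against 3.65 CPM in WT, with a log2 fold change of -5.11 (adjusted p = 1.03e-08), so that CHRNE and C17orf107 reads cannot be told apart and the part of C17orf107 in the CHRNE difference was not tested. Of the muscle markers listed, MYF5, MYOG, MYH8 and TNNT3 were under 0.1 CPM in both groups.

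The 16 untested genes were GABRA4, GABRB1, GABRG3, GABRR1, GABRR2, GRID1, GLRA1, GLRA2, GLRA3, GRIK1, CHRNA1, CHRND, CHRNG, CHRNA2, CHRNA6 and CHRNB3. Their values lay between 0 and 0.437 CPM in every library, with at most 16 counts in any 1 library. In an edgeR fit with no filter, 0 of the 16 passed (lowest adjusted p = 0.127), and 1 of them, CHRNA2, had an unadjusted p under 0.05. The DESeq2 Wald test gave an adjusted p for 9 of them and called 0, with 0 at an unadjusted p under 0.05, and the authors' deposited table gave an adjusted p for 9 and also had 0 under 0.05. Among the 39 tested genes, 32 exceeded the count filter (0.271 CPM before TMM scaling) in all 10 libraries. The other 7, among them GRIN2C, GRIN3A, GLRA4, GLRB, CHRNE and CHRNA10, exceeded it in only some. CHRNE and CHRNA10 did so in 1 knockout library and 5 WT libraries each, so that they entered the test through the group in which they were higher.

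Several of these genes sit in clusters on their chromosomes, and 3 of the clusters are described here. Beside the counts that follow, 24.1% of all tested genes were lower in the knockout and 21.9% higher. The cluster of GABRE, GABRA3 and GABRQ (chrX:151953124-152657534) had all 3 genes lower in the knockout. Of the 10 tested neighbours within 500000 bases, 7 were lower and 1 higher, with a median log2 fold change of -0.50. PNMA3, for example, named after its values were seen, had a log2 fold change of -0.71 (adjusted p = 3.11e-05). The cluster of CHRNA5, CHRNA3 and CHRNB4 (chr15:78565520-78727754) had 2 genes lower, and of 18 tested neighbours 7 were lower and 1 higher, with a median of -0.078. On chromosome 4, GABRG1 rose and GABRA2 did not pass, and among 7 tested neighbours 1 was higher and 2 lower.

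**Figure D4:**
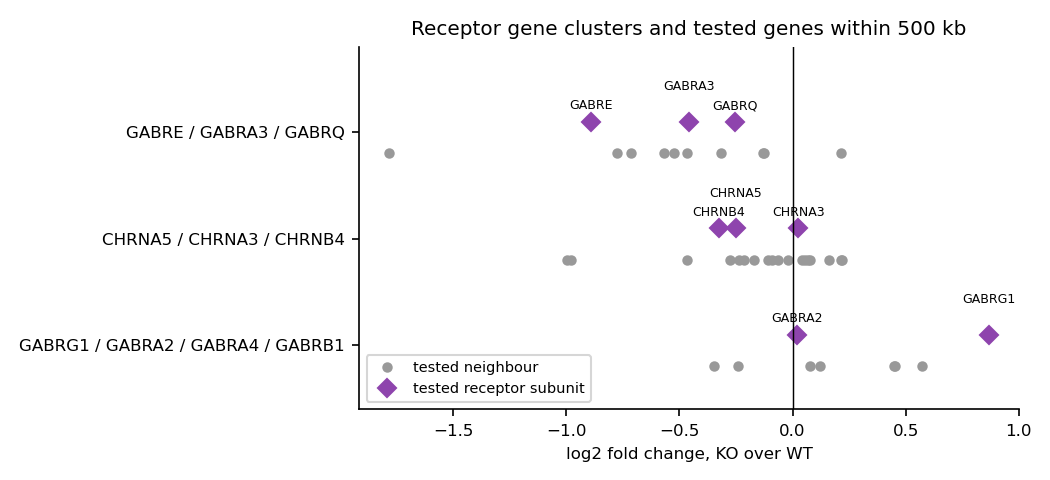
Log2 fold change (knockout over WT) of tested receptor subunit genes (purple) and of the tested genes within 500000 bases (grey) in 3 chromosomal clusters. In the cluster of GABRE, GABRA3 and GABRQ most neighbours also lie left of 0.

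Within the knockout group the subunit genes were not evenly low. Over the 32 genes that were called or averaged at least 1 CPM, the median log2 difference from the WT mean, computed on CPM + 0.1, was -0.24 in knockout replicate 1, -0.15 in replicate 2, -0.50 in replicate 3, -0.33 in replicate 4 and -0.28 in replicate 5. The same medians were between -0.037 and 0.027 in the WT libraries. Knockout replicate 3, which stood apart over all genes, was the lowest knockout library in 17 of 39 tested subunit genes (43.6%, against 25.0% of all tested genes). Knockout replicates 1 and 2 were both above the other 3 in 12 subunit genes (30.8%, against 19.2% of all tested genes), among them GABRE, GABRA3, GABRQ, GRIK3, GRIA3, GRIA4, CHRNA4, CHRNA5 and CHRNB2. They were both below the other 3 in GABRB2, GRIN2C and GRIN2D (7.69%, against 19.8%). The part of library differences in the calls was not tested beyond leaving libraries out. GABRP went against this order, with knockout replicate 1 lowest and replicate 5 highest.

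**Figure D5:**
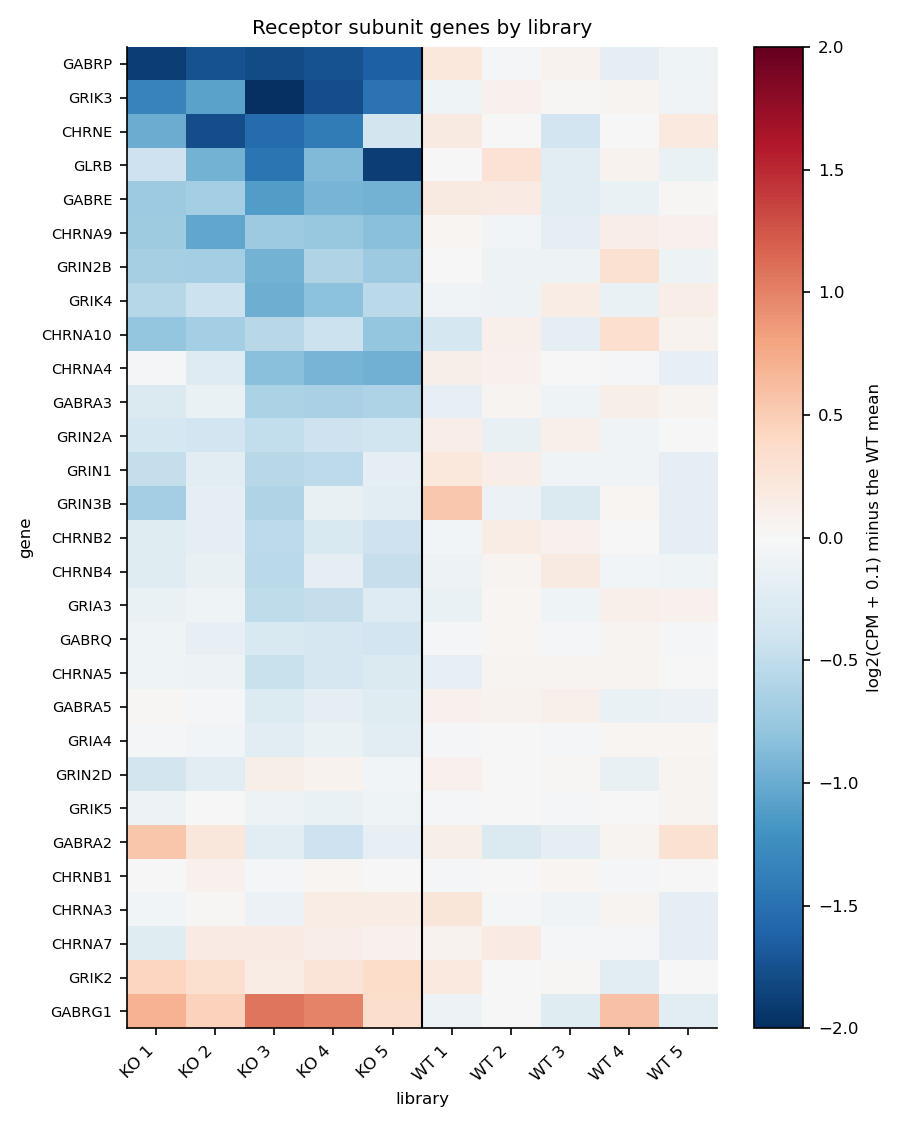
Difference of log2(CPM + 0.1) from the WT mean in each library (knockout left, WT right of the line) for 29 receptor subunit genes that were called or averaged at least 1 CPM. Values past the ends of the colour scale take the end colour. GABRP and GRIK3 are low in all 5 knockout libraries, GABRG1 and GRIK2 lie above the WT mean in all 5, and CHRNA4 is low mainly in knockout replicates 3, 4 and 5.

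The genes that supply and clear the transmitters were described from lists drawn by function. Among all tested genes 24.1% fell and 21.9% rose, 46.0% in all. The shares called in either direction were near that for the lists of GABA handling (44.4%), nicotinic assembly (4 of 8 genes) and receptor anchoring (53.3%). They were somewhat higher for glycine handling (57.1%), metabotropic glutamate receptors (60%), acetylcholine handling (60%) and the auxiliary genes of ionotropic glutamate receptors (62.5%). The highest share was that of glutamate handling (81.8%). Most of these lists held few tested genes. Of 9 tested genes of GABA synthesis, transport and breakdown, 4 fell and 0 rose. They were SLC6A11, a GABA transporter, with 2.24 CPM in the knockout, against 4.33 CPM in WT (log2 fold change -0.95, adjusted p = 2.18e-04), SLC6A12, another transporter (log2 fold change -0.78, adjusted p = 0.0450), GABBR1, a subunit of the metabotropic GABA-B receptor (log2 fold change -0.18, adjusted p = 0.00341), and ABAT, the GABA transaminase (log2 fold change -0.15, adjusted p = 0.0293). GAD1 and GAD2, the GABA-synthesising enzymes, averaged under 0.4 CPM in both groups. Of 15 tested genes for anchoring and assembly of GABA-A and glycine receptors, 5 rose and 3 fell. NLGN4X, a neuroligin, rose to 201 CPM in the knockout, against 124 CPM in WT (log2 fold change 0.70, adjusted p = 1.96e-07). GABARAP and GABARAPL2, which traffic receptors and also serve in autophagy, rose too (log2 fold changes 0.32 and 0.28, adjusted p = 2.96e-06 and 4.05e-04). IQSEC3, an exchange factor of inhibitory synapses, fell (log2 fold change -1.07, adjusted p = 2.28e-05).

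Of 11 tested genes of glutamate synthesis, transport and breakdown, 5 fell and 4 rose. SLC1A3, the glial-type glutamate transporter EAAT1, averaged 17.2 ± 1.61 CPM in the knockout, against 35.5 ± 3.10 CPM in WT and fell (log2 fold change -1.04, adjusted p = 9.40e-07), as did the transporter genes SLC1A1 (log2 fold change -0.38, adjusted p = 2.03e-05) and SLC38A1, which carries glutamine (log2 fold change -0.38, adjusted p = 6.01e-05). GLS2, a glutaminase, rose (log2 fold change 0.52, adjusted p = 9.32e-05). Among the 5 tested metabotropic glutamate receptor genes, 2 fell and 1 rose. GRM3 fell (log2 fold change -1.14, adjusted p = 6.03e-05) and GRM4 rose, at 52.1 CPM in the knockout, against 38.8 CPM in WT (log2 fold change 0.43, adjusted p = 7.34e-04), while GRM2 averaged 3.52 CPM in the knockout, against 3.73 CPM in WT and did not pass (log2 fold change -0.088, adjusted p = 0.621). Of 32 tested auxiliary and scaffold genes of ionotropic glutamate receptors, 15 fell and 5 rose, with a median log2 fold change of -0.18. CACNG8, an AMPA receptor auxiliary subunit, averaged 10.5 ± 1.71 CPM in the knockout, against 22.1 ± 0.559 CPM in WT and fell (log2 fold change -1.07, adjusted p = 4.10e-06). CPT1C, which assists AMPA receptor trafficking, and HOMER1, a scaffold of group I metabotropic receptors, also fell (log2 fold changes -0.33 and -0.23, adjusted p = 2.29e-04 and 1.30e-04), and the hydrolase gene ABHD12 rose (log2 fold change 0.15, adjusted p = 2.99e-04).

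Of 7 tested genes of glycine transport and breakdown, 3 fell and 1 rose. AMT and GLDC of the glycine cleavage system fell (log2 fold changes -0.86 and -0.34, adjusted p = 1.45e-09 and 1.73e-05), as did the glycine transporter gene SLC6A9 (log2 fold change -0.22, adjusted p = 0.00165), whereas GCSH of the same system was higher (log2 fold change 0.14, adjusted p = 0.00171) except under the length and GC offset, where its sign turned. Of 5 tested genes of acetylcholine handling, the esterase genes ACHE and BCHE rose (log2 fold changes 0.32 and 0.19, adjusted p = 0.0298 and 0.0423) and the choline transporter gene SLC44A1 fell (log2 fold change -0.19, adjusted p = 0.00122), while COLQ did not pass (log2 fold change -0.071, adjusted p = 0.647). CHRM3 was the single muscarinic receptor gene tested and did not pass (log2 fold change -0.081, adjusted p = 0.430). Of 8 tested assembly and modulator genes of nicotinic receptors, 3 fell and 1 rose. LYNX1, which encodes a membrane-anchored modulator of nicotinic receptors, averaged 9.76 ± 0.557 CPM in the knockout, against 23.1 ± 1.28 CPM in WT and fell (log2 fold change -1.24, adjusted p = 1.33e-08). AGRN and LRP4, which cluster receptors at the neuromuscular junction, fell as well (log2 fold changes -0.25 and -0.23, adjusted p = 2.87e-05 and 0.00592), and LYPD6B rose (log2 fold change 0.30, adjusted p = 0.0258).

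Markers of cell types that use these receptors did not move one way. Of the 12 tested neuron markers, 4 rose and 4 fell (66.7% called, against 46.0% of all tested genes). The list of 15 summed to 201 to 224 CPM in the knockout, against 211 to 231 CPM in WT. STMN2 rose most (log2 fold change 2.34, adjusted p = 3.28e-09), while MAP2 and DCX fell (log2 fold changes -0.69 and -0.68, adjusted p = 1.42e-04 and 0.00134). Of the 3 tested neural progenitor markers, FABP7 fell (log2 fold change -0.31, adjusted p = 0.0344), and PAX6, SOX1 and HES5 averaged under 0.1 CPM in both groups. The 8 listed summed to 377 to 433 CPM in the knockout, against 397 to 416 CPM in WT, nearly all of it from NES. Of the 3 tested skeletal muscle markers, ACTA1 alone rose (log2 fold change 2.37, adjusted p = 2.50e-05), and the other 2 did not pass. The 9 matched summed to 19.2 to 47.6 CPM in the knockout, against 8.37 to 10.8 CPM in WT. That sum includes ACTA1 and does not show a rise of muscle markers in general. Of the 10 pluripotency genes, 5 rose and 1 fell (60% called). Among all tested genes, 21.9% were higher and 24.1% lower. The part of these markers in the receptor gene results was not tested.

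The authors' deposited table for this comparison gave an adjusted p for 48 of the 55 genes, of which 17 were under 0.05 and lower and 3 were under 0.05 and higher (18.0% and 18.4% of all its genes with an adjusted p). Of the 24 genes called by edgeR, 20 were under 0.05 with the same sign in the authors' deposited table, and GRIK5, CHRNA10 and CHRNB4 were among those that were not. In the authors' deposited table, whose fold changes look shrunken towards 0 where counts are low, GABRP had a log2 fold change of -1.69 and GRIK3 -1.30. Its own column of calls marked 8 of the genes, GABRP, GABRE, GRIN2B, GLRB, GRIK3, GRIK4, CHRNE and CHRNA9, all of them lower in the knockout. The share of all genes that this column marked was not computed.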

How the data were processed

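The deposited values are raw counts for each gene in 10 libraries (5 knockout, 5 WT), sequenced with 150 paired-end cycles per the labels. The authors' deposited comparison table holds a mean normalised signal, log2 fold changes with standard errors in log2, a test statistic (score), p-values with adjusted p-values, and a column of calls. Tools and build in the submitters' processing notes are DESeq2, R 3.6.3 and hg38; the sources used here do not give the aligner, counter, the annotation used for counting or the strand setting. Groups and replicate numbers came from titles.

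Tests on counts used edgeR 4.0.16 under R 4.3.3 (TMM scaling, filterByExpr, glmQLFit and glmQLFTest on group; Benjamini-Hochberg over 19163 genes; threshold 0.05), after a check on simulated data. SE is the absolute log2 fold change over the square root of F. Alternatives used DESeq2 1.42.0 and limma 3.58.1. CPM used TMM-scaled library sizes. Levels per kilobase, positions and overlaps used a reference annotation supplied separately, GENCODE 29 (GRCh38), with 1 transcript per gene (principal, else longest). Promoters are RefSeq's, GRCh38.p14. Chi-square per degree of freedom between libraries of a group was 3.59 to 26.2, above sampling noise. Limits from a count of 0 cover counting error only, as the labels name no molecular identifiers. The members and lists were chosen with earlier results of these data known. Genes named were subunit genes that were called or averaged at least 1 CPM, and up to 4 genes of each functional list; marker genes and other genes were named after their values were seen. Some genes are counted in the totals and are not reported here by name.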

Additional observations from a re-analysis of the deposited data

Results flagged for a closer look

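In 4 of 66 groups of 5 libraries (33 genes, each in the knockout and in WT), 1 library lay far from the other 4 relative to the range of its group; chance gives about 1 in 20. WT replicate 4 was high for GABRG1, at 0.550 CPM where the next WT library was at 0.331 CPM. The same library was high for GRIN2B, at 3.50 CPM against 2.83 CPM for the next. WT replicate 1 was low for CHRNA5, at 17.1 CPM, with the next library at 19.2 CPM. Knockout replicate 1 was low for CHRNA7, at 5.64 CPM, with the next at 7.06 CPM.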

How the results depend on the processing

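Over the 9 alternatives that did not leave out a single library, the count of subunit genes lower in the knockout stayed within 1.5 times the 20 reported except without knockout replicate 3 and WT replicates 2 and 3 (11 genes). The count of higher genes, 4 as reported, was 2 with a filter of 1 CPM in 5 libraries, 2 without knockout and WT replicates 3, and 2 without knockout replicate 3 and WT replicates 2 and 3. The 1 CPM filter tested 27 subunit genes, and the other fits had fewer libraries. Leaving out each library in turn gave 15 to 20 lower and 3 to 6 higher, with medians over the tested subunit genes of -0.32 to -0.22. Replicate numbers did not pair the libraries, since same-numbered deviations correlated at 0.17, -0.16, 0.70, 0.20 and 0.18 and only the third pair matched best with its own number; with the replicate block 18 were lower and 3 higher, the calls of GRIK5 and CHRNB4 were among those lost (adjusted p = 0.0875 and 0.0722), and it moved no count by over 1.5 times.

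Among the genes named, signs turned only for those that were not called, apart from GCSH (-0.021 with the length and GC offset). That offset gave GABRA2 -0.015, GRIN2D 0.016 and CHRM3 0.050, and limma voom gave GABRA2 -0.00130. Without knockout and WT replicates 3, GRM2 was at 0.0045 and COLQ at 0.029; without WT replicate 2 too, GABRA2 was at -0.083, GRM2 at 0.043 and COLQ at 0.052. Over all fits that left out libraries the log2 fold change spanned -0.13 to 0.12 for GABRA2, -0.018 to 0.093 for CHRNA3, -0.17 to 0.043 for GRM2 and -0.13 to 0.052 for COLQ. The cause was not tested. Genes under 1 CPM rest on few counts and have wide intervals.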
